A study of Homo sapiens with 2 samples.

Results

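The miR-99/100 and miR-125 families are represented on this array by 5 mature guide strands, hsa-miR-99a, hsa-miR-99b, hsa-miR-100, hsa-miR-125a-5p and hsa-miR-125b, which were taken by name from the 1329 probes. They were chosen because their genes stand next to let-7 genes and share transcripts with them, and the rule uses names and no measured value, although it was set with earlier results of these data known. The cells were MKN1, an established human gastric cancer line, kept for 24 h either under normoxia or in a chamber with 1% O2 (hypoxia). Their total RNA carried a biotin label and was read on a human miRNA array that probes 879 mature miRNAs and 450 precursors. There was 1 array per condition, so every difference below is between 2 arrays, has no replicate check and was not tested. Signals are the authors' normalized intensities on a linear scale. The lowest listed signal was 20, and a probe listed at 0 has no usable value on that array. On the normoxia array 665 probes had a listed signal and on the hypoxia array 837, of which 663 were shared.

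A miRNA guide strand is loaded into an Argonaute protein and pairs with target mRNAs mainly through its seed, bases 2 to 8, which leads to repression of those mRNAs. The miR-125 family is the vertebrate counterpart of lin-4, which acts together with let-7 in the developmental timing of Caenorhabditis elegans, and in mammals it represses LIN28, an RNA-binding protein that blocks let-7 maturation. The miR-99/100 family is known for repression of MTOR, the kinase that couples growth to nutrients. Low oxygen can restrain this pathway, whereas the study reported that hypoxia activated mTOR in MKN1 cells. Both families have been described as tumor suppressors in some cancers, while miR-125b is also known as an oncogene in leukemia.

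The guide sequences are shown because the seeds divide the members into 2 families and because the members are so similar outside the seed that a probe for one may also bind another. Capitals mark the seed, and all 5 members were matched to RefSeq (GRCh38.p14). miR-10a, a relative of miR-99/100 with a different seed, is printed for comparison.
miR-99a: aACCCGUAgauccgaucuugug
miR-100: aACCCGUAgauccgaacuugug
miR-99b: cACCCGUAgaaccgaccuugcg
miR-125a-5p: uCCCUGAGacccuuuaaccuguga
miR-125b: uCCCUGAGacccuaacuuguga
miR-10a: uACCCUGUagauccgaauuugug

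Counted from the 5′ end, miR-99a and miR-100 differ by a single substitution, U16A. miR-99b differs from miR-99a by 4 substitutions, A1C, U11A, U16C and U21C, none of them in the seed. miR-125a-5p (24 bases) and miR-125b (22 bases) share their first 13 bases and their last 5, with differences in between. Among the human mature miRNAs in the RefSeq table, the seed ACCCGUA belonged to these 3 members alone, and the seed CCCUGAG to miR-125a-5p, miR-125b and miR-4319. Cross-binding of the array probes, whose sequences were not used here, was not tested.

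The members come from 3 loci, each holding a miR-99/100 gene, a let-7 gene and a miR-125 gene in that order along the transcript. On chromosome 11, miR-100 (chr11:122152275-122152296, minus strand) is followed by let-7a-2 and by miR-125b from MIR125B1 (chr11:122099809-122099830, minus strand), within the noncoding host gene MIR100HG. On chromosome 21, miR-99a (chr21:16539101-16539122, plus strand) is followed by let-7c and by miR-125b from MIR125B2 (chr21:16590253-16590274, plus strand), within the noncoding host gene MIR99AHG. On chromosome 19, miR-99b (chr19:51692618-51692639, plus strand), let-7e and miR-125a-5p (chr19:51693268-51693291, plus strand) lie within the gene SPACA6. From the first to the last guide strand the loci span 52.5 kb on chromosome 11, 51.2 kb on chromosome 21 and 0.674 kb on chromosome 19. Since MIR125B1 and MIR125B2 give the same guide, the miR-125b probe cannot tell these loci apart.

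Under hypoxia, 4 of the 5 guide strands had a lower signal and miR-125b had a higher one. The signal of miR-99b went from 583.7 (normoxia) to 319 (hypoxia), 1.83-fold lower (log2 fold change -0.87). miR-100 had 314.3 and 199.7, which was 1.57-fold lower (-0.65), and miR-99a, which differs from it by that single base, had 284.3 and 193, or 1.47-fold lower (-0.56). The whole miR-99/100 seed family was thus lower on the hypoxia array, with miR-99b furthest. The miR-125 family was split. miR-125a-5p gave 228.7 in normoxia against 146 in hypoxia, 1.57-fold lower (-0.65), whereas miR-125b had 664 and 1026, which was 1.55-fold higher (0.63). The log2 fold change of miR-125a-5p was 1.28 below that of miR-125b (difference -1.28), although the guides share their seed. By comparison, miR-100 and miR-125a-5p, from different families and chromosomes, differed by -0.0068, the smallest gap between any pair of members. The sign of that gap changed over the alternatives described below (-0.037 to 0.042). Within the miR-99/100 family, miR-99a was 0.31 above miR-99b and 0.10 above miR-100.

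**Figure D1:**
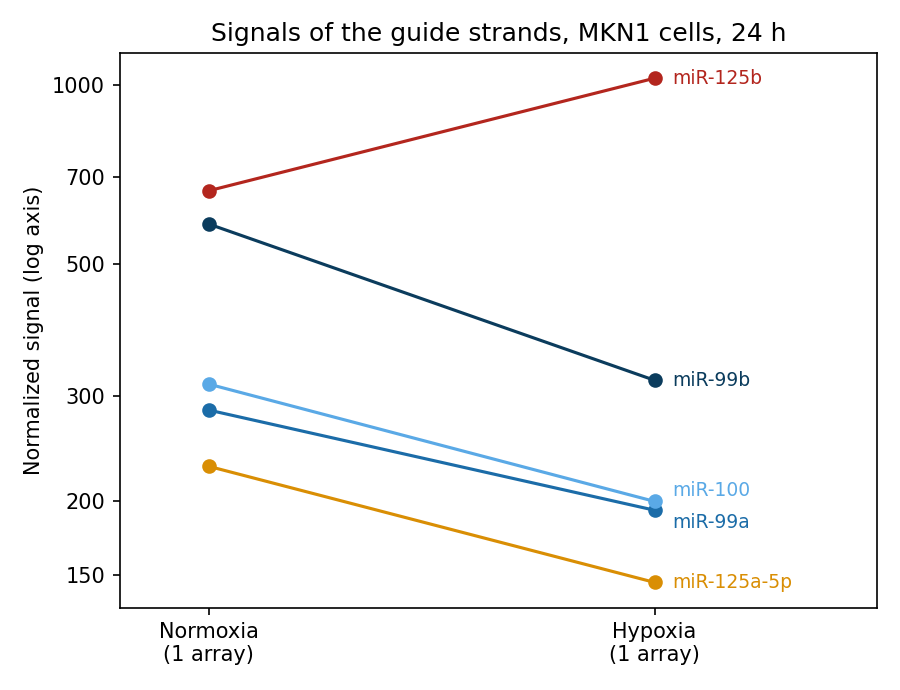
Normalized signal (log axis) of each guide strand on the normoxia and the hypoxia array, 1 array per condition, with a line joining the 2 values of a miRNA. Only miR-125b goes up, from 664 to 1026; brightness depends on the probe as well as on the miRNA, so the slopes and not the heights are to be compared.

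None of the 5 members differed by over 2-fold, the fold threshold of the study's methods. Of the 663 probes measured on both arrays, 2.11% were over 2-fold lower and 9.65% over 2-fold higher. These shares rest on the ratio alone, without the t-test of the methods, and need not match the study's counts. At 1.5-fold, 3 members were lower (miR-99b, miR-100 and miR-125a-5p) against 12.5% of the 663 probes, and 1 was higher (miR-125b) against 23.8%. Of the same 663 probes, 43.6% were lower by any amount and 56.3% higher. The 5 members had a median log2 fold change of -0.65, against 0.14 over the 663 probes. Among the 510 mature probes measured on both arrays, 24 had a lower log2 fold change than miR-99b, 52 than miR-100, 54 than miR-125a-5p and 73 than miR-99a, while 100 had a higher one than miR-125b. These positions place the 4 lower members in the lower part of the mature probes, and miR-125b in the upper part but not at its end. In brightness order among all 879 mature probes, where 1 is the brightest, miR-99b moved from position 214 under normoxia to 293 under hypoxia. miR-100 moved from 279 to 345, miR-99a from 286 to 353 and miR-125a-5p from 313 to 391. miR-125b moved the other way, from 206 to 164.

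Fold change on these arrays varied with brightness, dim probes being higher and bright probes lower under hypoxia as a group. The lower members were of moderate brightness, where the trend lay above 0. Its value was 0.14 at the brightness of miR-99b, 0.22 at miR-100, 0.23 at miR-99a and 0.26 at miR-125a-5p. Measured from the trend, their log2 fold changes were -1.02 for miR-99b, -0.91 for miR-125a-5p, -0.87 for miR-100 and -0.79 for miR-99a. The trend was 0.030 at miR-125b, which stood 0.60 above it. The 4 lower members were therefore further from probes of similar brightness than from 0, and miR-125b was about as far.

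**Figure D2:**
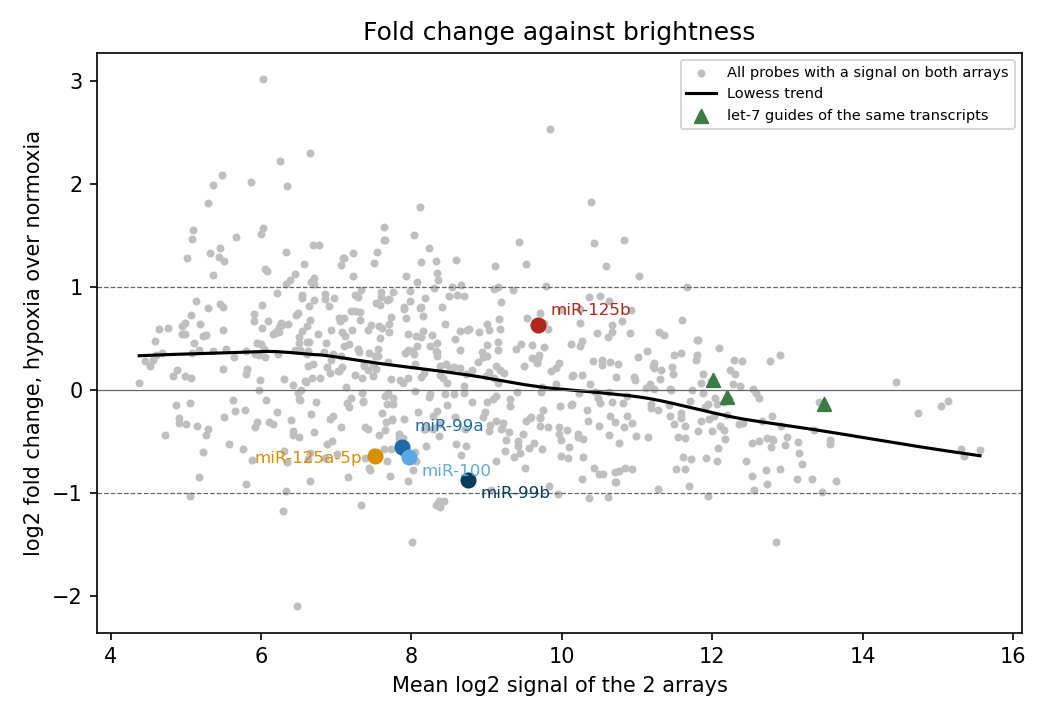
Log2 fold change of hypoxia over normoxia against the mean log2 signal of the 2 arrays for the 663 probes measured on both (grey), with the lowess trend (black line), the 2-fold limits (dashed), the 5 guide strands (coloured circles) and the let-7 guides of the same transcripts (green triangles). miR-99a, miR-99b, miR-100 and miR-125a-5p lie below the trend, at -1.02 to -0.79 from it, and miR-125b lies 0.60 above it.

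The let-7 guides of the same loci, which repress growth and cell cycle genes, were close to equal on both arrays. let-7a, which also has gene copies outside these loci, had signals of 11977 in normoxia and 10886 in hypoxia (log2 fold change -0.14), let-7c had 3993 and 4278 (0.10), and let-7e had 4788 and 4578 (-0.06). These guides are bright, and measured from the trend they were higher, by 0.26 for let-7a, 0.32 for let-7c and 0.19 for let-7e. let-7a differs from let-7c by 1 substitution (A19G) and from let-7e by 1 (U9G). Their probes may therefore bind each other's targets, which was not tested. On chromosome 19, where the genes lie closest together, the log2 fold change of let-7e was 0.81 above that of miR-99b and 0.58 above that of miR-125a-5p. On chromosome 21 that of let-7c was 0.66 above miR-99a, and on chromosome 11 that of let-7a was 0.52 above miR-100. The size of these gaps depended on the scaling. Over the alternatives described below it ran from 0.72 to 1.20 for let-7e over miR-99b and from 0.44 to 1.10 for let-7e over miR-125a-5p. It ran from 0.56 to 1.11 for let-7c over miR-99a and from 0.41 to 1.39 for let-7a over miR-100. Within each locus the miR-99/100 guide was the lowest of the trio. On chromosomes 11 and 21 the miR-125b guide, the same probe at these 2 loci, was the highest. This order held under each alternative, though only quantile normalization, trend removal and the pseudocounts could have changed it. Of the other 6 let-7 family guides, 5 were higher and 1 was lower under hypoxia (miR-98, 3510 and 2547), against 3 and 3 after median centring, where let-7b and let-7i were lower. The direction of let-7a, let-7c and let-7e was not stable under the alternatives either.

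The opposite arms and the precursors of the members gave fewer signals. Of the 6 passenger strands, 3 had a signal on both arrays and 3 were listed at 0 on both. miR-99b*, from the same hairpin as miR-99b, had signals of 51 in normoxia and 47.67 in hypoxia, and miR-125a-3p had 533.3 and 493. miR-125b-2*, which is made only from the chromosome 21 copy of the miR-125b gene, had 307.3 and 293. The log2 fold changes of these strands were -0.10, -0.11 and -0.07 on the authors' scaling. Measured from the trend they were -0.46 for miR-99b*, -0.23 for miR-125a-3p and -0.27 for miR-125b-2*, and so further below 0. For the hairpin of miR-99b the passenger strand was 0.77 above the guide in log2 fold change, and for that of miR-125a it was 0.53 above. Over the alternatives described below these gaps ran from 0.49 to 0.77 and from 0.40 to 0.68. The signals of miR-99b* were dim, not far above the lowest listed signal of 20. For miR-125b the order was the reverse, with the guide 0.70 above miR-125b-2* (0.65 to 0.86 over the alternatives). miR-125b-1*, made only from the chromosome 11 copy, was listed at 0 on both arrays, as were miR-100* and miR-99a*, although miR-99a* is marked as detected in the deposited table. The probes described here with a signal under hypoxia only, the miR-99a precursor, let-7e* and miR-10b, are marked there as not detected.

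The passenger strands that separate the gene copies of miR-125b, and the hairpin of miR-125a, the only member hairpin measured as guide, passenger and precursor, are given from RefSeq. Capitals mark the seed of the passenger strands and, in the hairpin (chr19:51693254-51693339, plus strand), first the guide miR-125a-5p and then the passenger miR-125a-3p.
miR-125b-1*: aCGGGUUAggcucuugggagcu
miR-125b-2*: uCACAAGUcaggcucuugggac
MIR125A hairpin: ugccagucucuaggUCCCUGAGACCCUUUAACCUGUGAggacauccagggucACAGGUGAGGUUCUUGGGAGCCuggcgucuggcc

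The signals of the miR-125a precursor were 2060 in normoxia and 1609 in hypoxia, 1.28-fold lower (log2 fold change -0.36), which lies between the values of its guide (-0.65) and its passenger strand (-0.11). A precursor probe may also bind the mature strand it contains, and this was not tested. The miR-99a precursor was listed at 0 under normoxia and at 29.67 under hypoxia, and the other 4 precursors of the members were listed at 0 on both arrays. A listed signal under hypoxia only was found for 174 of the 1329 probes. On chromosome 19, the let-7e precursor had 273 and 305.3 (0.16), let-7e* was at 0 and 24.67, and the miR-99b precursor was at 0 on both arrays. The 3 genes of this locus, which span less than 1 kb, thus gave precursor signals on both arrays for miR-125a and let-7e only. The miR-125a precursor was lower under hypoxia, while the let-7e precursor was higher, but lower with the trend removed (-0.04) and with quantile normalization (-0.05).

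**Figure D3:**
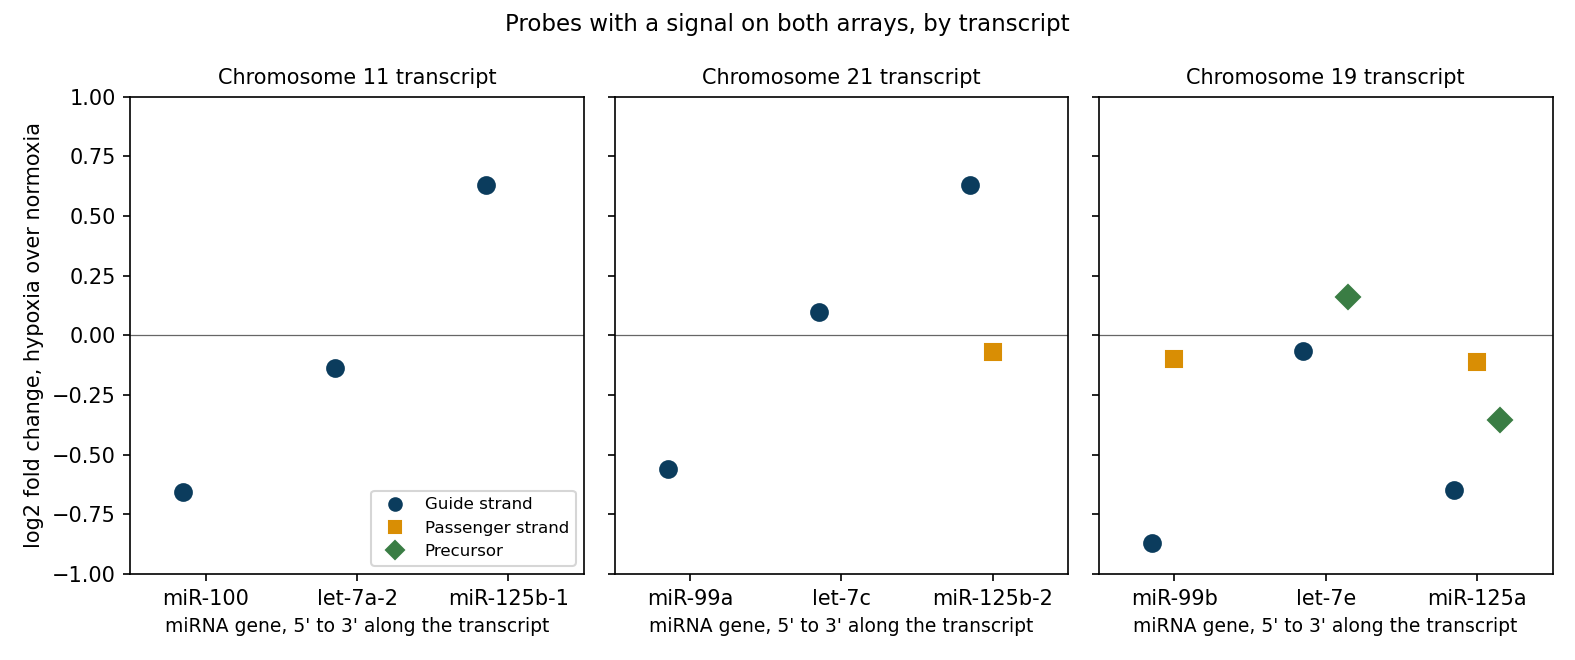
Log2 fold change of hypoxia over normoxia for the guide strand (circle), passenger strand (square) and precursor (diamond) of each miRNA gene, in transcript order, for probes measured on both arrays; probes listed at 0 are not drawn. The miR-99/100 guides lie between -0.87 and -0.56, the let-7 guides between -0.14 and 0.10, and the miR-125b guide, drawn at both of its loci but measured by the same probe, at 0.63.

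miR-10a, which shares a run of 11 bases with miR-100 and is encoded in a HOX gene cluster, had signals of 477.7 in normoxia and 366.3 in hypoxia (log2 fold change -0.38). It was thus lower too, by less than any of the miR-99/100 guides. miR-10b was listed at 0 under normoxia and at 26 under hypoxia.

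The mature miRNAs most like each member were those at the smallest distance on the log2 signals of the 2 arrays. For miR-99a these were miR-660 (distance 0.049; signals 294 and 191.7), miR-21* (0.060) and miR-203 (0.064). For miR-100 they were miR-302a* (0.11), miR-194 (0.11; 339.3 and 197.3) and miR-660 (0.11), so that miR-660 was among the nearest for both of these near-identical guides. miR-125a-5p was nearest to miR-135b (0.13; 229 and 133.7), miR-140-5p (0.13) and miR-363 (0.16), and miR-99b to miR-324-5p (0.22; 502 and 324.7), miR-422b (0.24) and miR-139-5p (0.33). The nearest to miR-125b were let-7b* (0.075; 689.3 and 1064), miR-412 (0.085; 644 and 1079) and miR-145 (0.18; 734.7 and 1104). With 2 arrays, this likeness describes only a similar brightness and a similar difference.

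The directions of the 5 guides were the same under every scaling computed. Of the 8 alternatives, the series matrix table held the same signals, so its agreement was given in advance. Across the 8 alternatives computed, the log2 fold change lay between -1.02 and -0.67 for miR-99b, between -0.88 and -0.46 for miR-100, between -0.92 and -0.45 for miR-125a-5p and between -0.84 and -0.36 for miR-99a, and between 0.49 and 0.83 for miR-125b. miR-99b was the lowest and miR-125b the highest member in each of them, and miR-99b passed 2-fold with the trend removed (-1.02), with quantile normalization (-1.01) and with median centring (-1.01). The gap from miR-125a-5p to miR-125b lay between -1.51 and -1.10. The values of the relatives were less stable. let-7a and let-7e were lower under 5 of the alternatives and higher under 3, let-7c was lower under 1, and the let-7e precursor was lower under 2. The 3 passenger strands were lower under 7 alternatives and higher after scaling on the total signal, while the miR-125a precursor and miR-10a were lower under all 8.

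**Figure D4:**
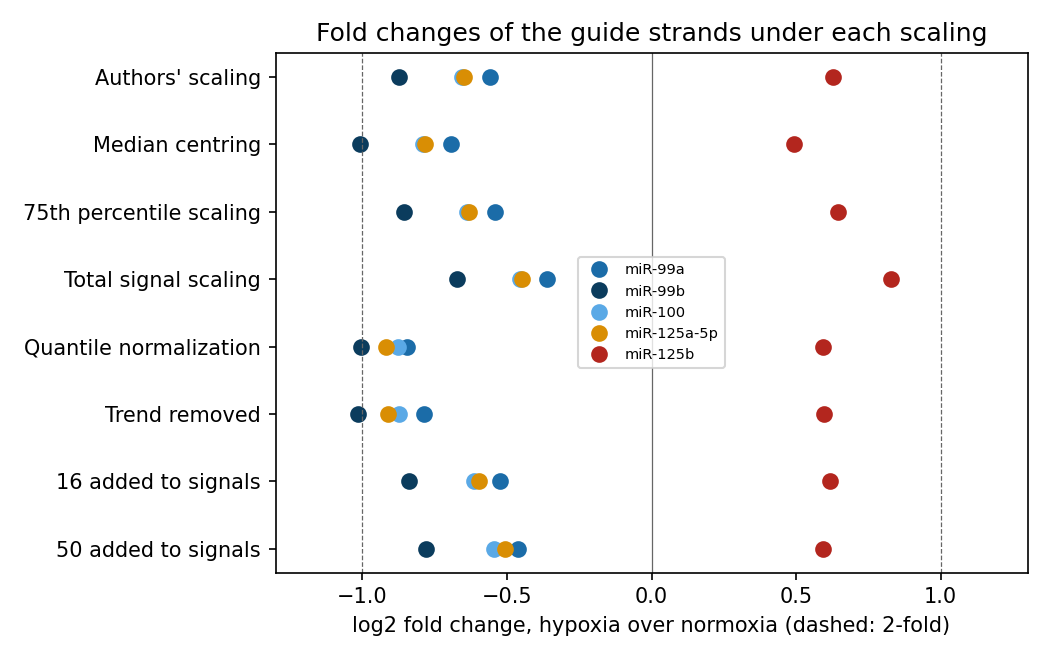
Log2 fold change of hypoxia over normoxia for the 5 guide strands (horizontal axis) under the authors' scaling and 7 alternatives (rows), with lines at equal signals and at 2-fold (dashed). miR-125b stays to the right of 0 in every row, between 0.49 and 0.83, and the other guides stay to the left.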

How the data were processed

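Total RNA of MKN1 cells kept for 24 h under normoxia or hypoxia was hybridized to a GenoSensor array with probes of miRBase v13, 1 array per condition. Per the study's methods, the authors read the spots with GeneSpring GX and scaled each array on its global signal intensity. The deposited intensities are described as normalized and are not logged. They do not have equal totals, which were 1149819 for normoxia and 1001867 for hypoxia. The median listed signals were 309.3 and 206.3. How the global scaling was done cannot be told from these values, and the term authors' scaling here means the intensities as deposited. Neither the software version nor the meaning of a 0 is stated in the sources used here. The deposited table also holds the authors' ratio and p-value for each probe, which were not used.

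Fold changes of hypoxia over normoxia were computed without a pseudocount for the 663 probes measured on both arrays. No test was made, and the methods' t-test cannot be made from 1 value per condition. The number of arrays limits the precision. The members and lists were chosen with earlier results of these data known. Named were the members, their passenger strands, precursors and let-7 partners, the miR-10 relatives and the 3 nearest mature probes of each member. Of 34 listed names, 33 were on the array; let-7a-2* was not matched. Likeness was Euclidean distance on log2 signals. The trend was fitted by lowess (span 0.4). Alternatives were median centring, 75th percentile and total signal scaling, quantile normalization, trend removal, pseudocounts of 16 and 50, and the series matrix table, which held the same signals for 1329 of 1329 probes. The scripts were tested on simulated data. Calculations used Python 3.11.15, numpy 2.4.6, pandas 2.3.3, statsmodels 0.14.6 and matplotlib 3.10.9. Sequences and positions are those of RefSeq (GRCh38.p14), since the array files name no build.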

Additional observations from a re-analysis of the deposited data

How the results depend on the processing

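No paired analysis was possible because each condition had 1 array, and no array could be left out. Of the 8 alternatives, the series matrix table held the same signals and could not differ. The number of members lower under hypoxia was 4 of 5 under the authors' scaling and all 8 alternatives. Their median log2 fold change lay between -0.88 and -0.45, and the mean of the miR-99/100 guides minus that of the miR-125 guides lay between -0.75 and -0.64 (-0.69 under the authors' scaling). The number of members over 2-fold was 0, against 1 (miR-99b) with the trend removed, with quantile normalization or with median centring. Trend removal subtracted the trend at miR-99b (0.1446) from its log2 fold change, and median centring subtracted the median over the 663 probes (0.136). For quantile normalization the cause was not tested. The number was 4 at the looser threshold of 1.5-fold, which could only keep or raise it. It was 0 at 3-fold and among the 2 members with both signals above their array's median. Neither of these could differ, since no member was over 2-fold under the authors' scaling. Scaling on the total signal shifted the median over the 663 probes from 0.14 to 0.33. Relative to that median the members kept their distances, as they must when all probes shift alike.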
